A study of Mus musculus with 6 samples.

Results

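The ribosomal protein genes of mouse surface ectoderm (SE) and neural ectoderm (NE) are described here, the cytosolic and the mitochondrial ones apart. They were chosen by name alone, as every gene whose symbol in the array's probe annotation has the form of a cytosolic ribosomal protein (Rpl or Rps and a number, Rplp0, Rplp1, Rplp2, Rpsa) or of a mitochondrial one (Mrpl or Mrps and a number). The rule found 132 of the 19057 genes that the annotation names by a single symbol. The cytosolic set had 56 genes, 33 of the large and 23 of the small subunit, read by 85 probes. The mitochondrial set had 76 genes, 48 of the large and 28 of the small subunit, read by 132 probes.

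Both tissues came from wild-type CD-1 mouse embryos at E8.5 in the labels, dissected at the level of the forebrain while the neural tube was closing. After a bath in pancreatin and trypsin the SE and the NE were separated with tungsten needles, and the labels state that cephalic mesenchyme was left out. Tissue from several embryos was pooled for each array, and 3 SE and 3 NE arrays, which the methods call biological replicates, were hybridised with biotin-labelled RNA. The study compared the tissues to find genes that separate the SE fate from the NE fate.

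Ribosomes make every protein of a cell from a small subunit, which reads the mRNA, and a large subunit, which joins the amino acids. Mitochondria keep ribosomes of their own, whose proteins are nuclear gene products imported from the cytosol and which translate the few mRNAs of the mitochondrial genome. Many mRNAs of cytosolic ribosomal proteins begin with a run of pyrimidines, the 5′ terminal oligopyrimidine (TOP) start, through which growth signals set their translation together.

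Each value below is the log2 of a probe's background-corrected and quantile-normalised signal intensity on 1 array, and each difference is SE minus NE, so that a negative value is higher in NE. The signal depends on the probe as well as on the RNA, so levels are compared between arrays and not between genes. Each array was brought to the same distribution of signals, so a value is relative to the array's other RNA. In pooled tissue, fewer cells of a type and less RNA per cell cannot be told apart. Probes were tested where the detection p-value was under 0.05 on at least 3 of the 6 arrays, and a gene was called different at an adjusted p under 0.05 (limma, Benjamini-Hochberg over all 19590 tested probes). For a gene with several probes the brightest was used. The number of arrays limits the precision: the median half-width of the 95% interval was 0.17 for cytosolic and 0.19 for mitochondrial genes.

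Most markers of the labelled tissues were higher in their own arrays, and markers of other cell types were detected too. Of 13 tested markers of surface ectoderm 13 were higher in SE, and of 10 tested markers of anterior neural ectoderm 9 were higher in NE. Of the listed neural markers, Hesx1, Lhx2, Lhx5 and Rax were detected on every NE array and on none of the SE arrays. Cdh2 and Sox1 were also detected on no SE array, but they failed the filter, as no probe of theirs was detected on all 3 NE arrays. Pax6 was detected on no array of either tissue, as was Epcam of the surface ectoderm list. Of 8 tested markers of cephalic mesenchyme 8 were higher in SE, with a summed signal of 2599 to 3368 on the SE arrays and 422 to 590 on the NE arrays, and Col1a1, Col1a2 and Foxc2 were detected on no array. Of 6 tested markers of blood and endothelium 4 were higher in SE, with sums of 4354 to 8061 on SE and 814 to 2375 on NE arrays, and Gata1 and Tie1 were detected on no array. The neural crest list had 5 of 6 tested markers higher in SE and the other higher in NE, and the endoderm list had 2 of 4 higher in NE. The part of these cells in the differences below was not tested. The homeobox gene En1 read 11.05 on NE array 2 and 9.70 and 9.71 on NE arrays 1 and 3, while a published picture of the arrays draws the high column at array 3, so the numbers of these 2 arrays are uncertain. The comparison of the tissues does not use these numbers.

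Few ribosomal protein genes differed between SE and NE, and all that did differed by less than 2-fold. Of the 53 cytosolic genes tested, Rps25 was higher in SE, and 3 genes, Rps15a, Rpl4 and Rpl22, were higher in NE. Of the 73 mitochondrial genes tested, 4 genes, Mrps34, Mrpl34, Mrpl14 and Mrps26, were higher in SE, and 3 genes, Mrpl39, Mrpl57 and Mrpl47, were higher in NE. These are 7.55% of the cytosolic and 9.59% of the mitochondrial genes. Over all tested probes 37.3% were called, 17.1% higher in SE and 20.2% higher in NE. At an unadjusted p under 0.05 the counts were 4 cytosolic and 13 mitochondrial genes, and 9172 of all tested probes.

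The differences lay on both sides of 0. The median was -0.0015 for cytosolic genes, with quartiles of -0.05 and 0.05, and 26 genes were above 0 and 27 below. The mitochondrial median was 0.03, with quartiles of -0.08 and 0.14, and 42 genes were above 0 and 31 below. The median over all tested probes was -0.02. Without their sign, the median difference was 0.05 for cytosolic genes, 0.11 for mitochondrial genes and 0.22 for all tested probes. A log2 difference of 0.5 or more was found for 2 cytosolic genes, no mitochondrial gene and 21.4% of all tested probes. The 95% interval lay wholly between -0.5 and 0.5 for 49 of 53 cytosolic genes (92.5%), for 69 of 73 mitochondrial genes (94.5%) and for 52.3% of all tested probes.

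**Figure D1:**
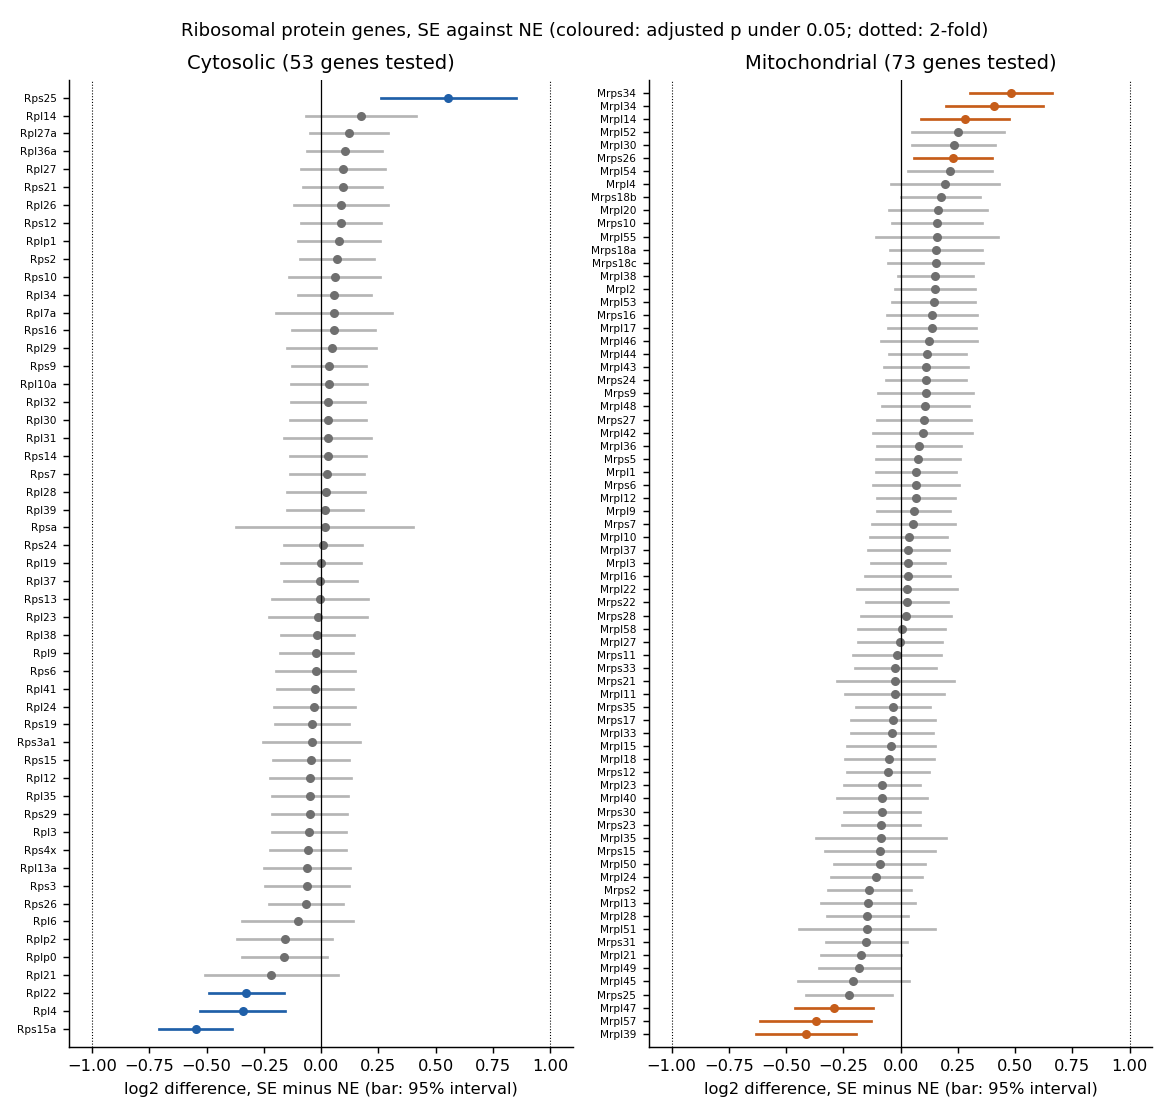
Log2 difference between SE and NE (x axis, SE minus NE) of every tested cytosolic (left, 53) and mitochondrial (right, 73) ribosomal protein gene (y axis, sorted), each a point with its 95% interval, coloured where the adjusted p was under 0.05 and grey otherwise, with dotted lines at 2-fold. The 4 cytosolic and 7 mitochondrial genes called lie towards the ends of both columns, with the uncalled Mrpl52 and Mrpl30 further out than the called Mrps26, and no gene reaches 2-fold.

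**Figure D2:**
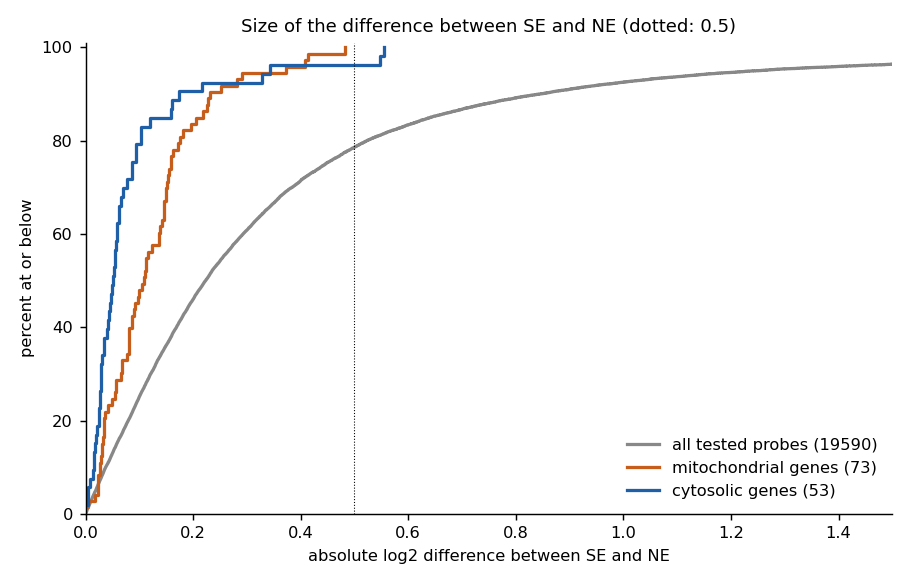
Percent of genes or probes (y axis) whose absolute log2 difference between SE and NE is at or below the value on the x axis, for cytosolic genes (blue, 53), mitochondrial genes (orange, 73) and all 19590 tested probes (grey), with a dotted line at 0.5. The cytosolic line reaches its middle at 0.05, the mitochondrial one at 0.11 and the grey one at 0.22.

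The 3 arrays of one tissue all lay above the 3 of the other for 13 cytosolic genes (24.5%), 6 with SE above and 7 with NE above. For mitochondrial genes this held for 27 (37.0%), 17 with SE above and 10 with NE above. Over all tested probes the share was 51.0%. Paired by replicate number, no member reached 2-fold in any pair, against 1518, 1506 and 1850 of all tested probes in pairs 1, 2 and 3 as numbered in the labels.

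Rps15a, a protein of the small subunit, was the cytosolic gene furthest towards NE. It read 8.85, 8.86 and 8.90 on the NE arrays, given here and below in the order 1, 2, 3, and 8.32, 8.32 and 8.34 on the SE arrays. The arrays of each tissue lay close together and the tissues did not overlap. The difference was -0.55 (95% interval -0.71 to -0.39), or 1.46-fold, with an adjusted p of 0.000605.

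Rps25, also of the small subunit and needed for translation from several viral internal ribosome entry sites, was the only cytosolic gene higher in SE. It read 12.41, 12.08 and 12.32 on the SE arrays and 11.59, 11.93 and 11.62 on the NE arrays. SE array 2 and NE array 2 came nearest to each other, and the tissues did not overlap. The difference was 0.56 (0.26 to 0.85), or 1.47-fold, with an adjusted p of 0.0110, and it ranged from 0.48 to 0.67 with each array left out in turn.

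The other small-subunit genes named for their role showed no such gap. Rps6, the target of the S6 kinases of the growth pathway, read 14.39, 14.51 and 14.38 on NE and 14.40, 14.40 and 14.41 on SE arrays, a difference of -0.02 (-0.20 to 0.15). Rps19, mutated in human Diamond-Blackfan anaemia, had a difference of -0.04 (-0.20 to 0.12), and Rps14, lost in the human 5q- syndrome, one of 0.03 (-0.14 to 0.19). The tissues overlapped in all of these. The X-linked Rps4x differed by -0.06 (-0.22 to 0.11) and Rps3, which lies where the mRNA enters the ribosome, by -0.06 (-0.25 to 0.12). Rps2 read 15.39, 15.33 and 15.39 on NE and 15.43, 15.46 and 15.44 on SE arrays, which did not overlap, with a difference of 0.07 (-0.09 to 0.23) and an adjusted p of 0.468. Rpsa, the laminin receptor precursor, was read by a dim probe detected on 4 of the 6 arrays, with values from 4.67 to 5.28 and a difference of 0.02 (-0.37 to 0.40).

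In the large subunit, Rpl4, which lines the tunnel through which the new protein leaves, read 12.31, 12.27 and 12.34 on NE and 11.89, 12.08 and 11.92 on SE arrays. SE array 2 was the highest of its tissue and still below every NE array. The difference was -0.34 (-0.53 to -0.16), or 1.27-fold, with an adjusted p of 0.0124. Rpl22, a protein that mice need for the development of T cells, read 12.03, 12.02 and 11.99 on NE and 11.73, 11.69 and 11.64 on SE arrays, again without overlap. Its difference was -0.33 (-0.49 to -0.16), or 1.25-fold, with an adjusted p of 0.00838. Its paralogue Rpl22l1 was read by a dim probe, with values from 5.50 to 5.94, and differed by -0.06, with an adjusted p of 0.742.

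The acidic proteins Rplp0, Rplp1 and Rplp2 form the stalk that recruits the elongation factors. Rplp0 read 10.79, 10.84 and 10.76 on NE and 10.62, 10.55 and 10.74 on SE arrays, and Rplp2 read 14.65, 14.85 and 14.59 on NE and 14.58, 14.51 and 14.51 on SE arrays. In both genes every NE array was above every SE array. The differences were -0.16 (-0.35 to 0.02) for Rplp0 and -0.16 (-0.37 to 0.05) for Rplp2, with adjusted p of 0.154 and 0.201. Rplp1 overlapped between the tissues and differed by 0.08 (-0.10 to 0.26).

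Rpl38 and Rpl24 are the genes of the mouse mutants Tail short and Belly spot and tail, which have skeletal defects. Rpl38 read 15.44, 15.37 and 15.38 on NE and 15.38, 15.37 and 15.39 on SE arrays, a difference of -0.02 (-0.18 to 0.14). Rpl24 differed by -0.03 (-0.21 to 0.15). Rpl41, the smallest ribosomal protein, had a difference of -0.03 (-0.19 to 0.14). At the dim end Rpl14 differed by 0.17 (-0.07 to 0.41) and Rpl6 by -0.10 (-0.35 to 0.14), both with overlapping tissues and values between 4.80 and 5.26. Rps27a, Rpl5, Rpl11 and Rpl10 were not analysed here.

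**Figure D3:**
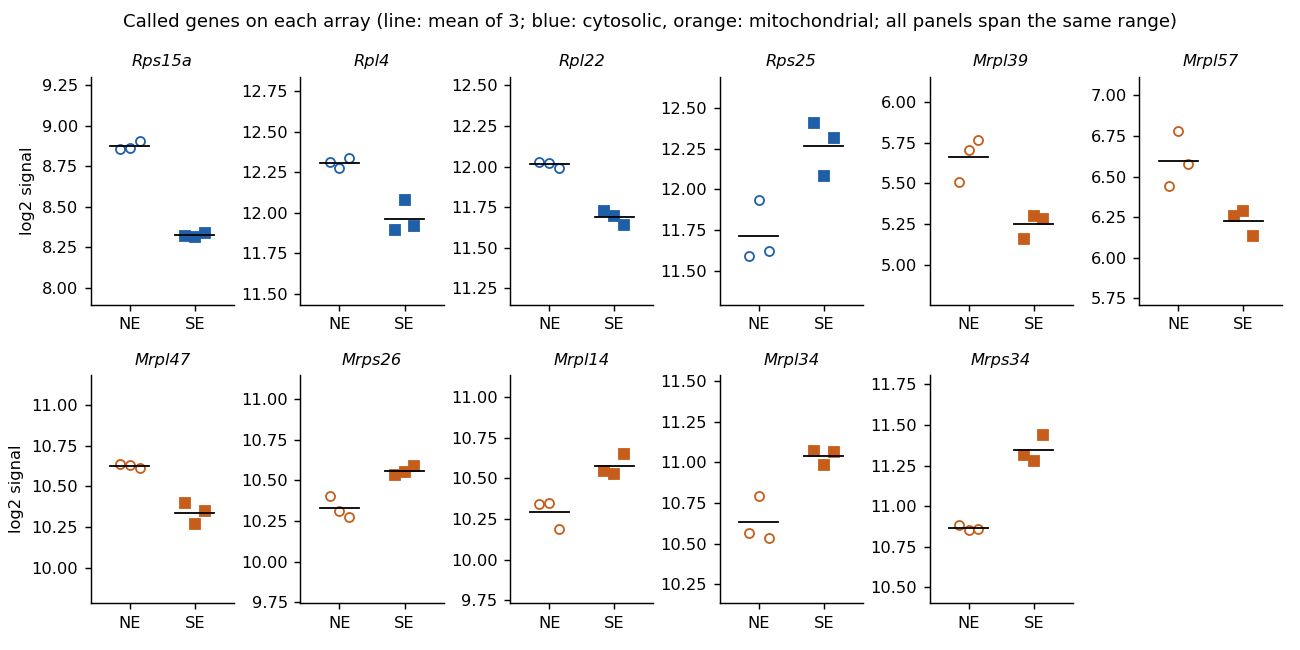
Log2 signal (y axis, each panel spanning the same range) on each of the 3 NE (open circles) and 3 SE (filled squares) arrays for the 11 ribosomal protein genes called, cytosolic in blue and mitochondrial in orange, with a line at the mean of 3. In every panel the tissues do not overlap, with the widest gap in Rps15a relative to the spread of its arrays.

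Cytosolic ribosomal protein probes were among the brightest of the array. Of the 100 brightest probes 25 were cytosolic members, and of the 500 brightest 43 were, while no mitochondrial member was in either group. The cytosolic probes held between 6.00% and 6.26% of the summed signal of an array and the mitochondrial ones between 0.914% and 0.974%. The tissues overlapped in both shares. The median signal of the cytosolic genes was 14.18, 14.13 and 14.12 on NE and 14.13, 14.09 and 14.18 on SE arrays. That of the mitochondrial genes was 10.58, 10.74 and 10.58 on NE and 10.64, 10.63 and 10.74 on SE arrays.

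The calls lay among the dimmer cytosolic probes. Of the 37 cytosolic genes with a mean signal of at least 13, limma called 0 and found 0 at an unadjusted p under 0.05, and the size of their differences had a median of 0.04 and a maximum of 0.16. In this class 39 of 312 other probes (12.5%) were called, with a median size of 0.07. The 4 called cytosolic genes were among the 16 below 13. Between 11 and 13 limma called 3 of 9 (33.3%), a share near that of other probes, 346 of 1230 (28.1%). Between 9 and 11 it called 0 of 2, against 1238 of 3135 (39.5%). Below 9 it called 1 of 5 (20%), against 5666 of 14728 (38.5%). The brightest member probe of an array had a raw signal of 45156 to 50509, below the array's own maximum of 50941 to 57403, and whether signals this bright are compressed was not tested. With the deposited scaled values, which were not quantile-normalised, 0 of these 37 genes were called and the largest difference was 0.13.

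Mitochondrial genes were spread over the middle of the range. Between 11 and 13 limma called 1 of 32 (3.13%), against 346 of 1230 other probes (28.1%), and between 9 and 11 it called 4 of 29 (13.8%), against 1238 of 3135 (39.5%). Below 9 it called 2 of 12 (16.7%), Mrpl39 and Mrpl57, against 5666 of 14728 other probes (38.5%).

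**Figure D4:**
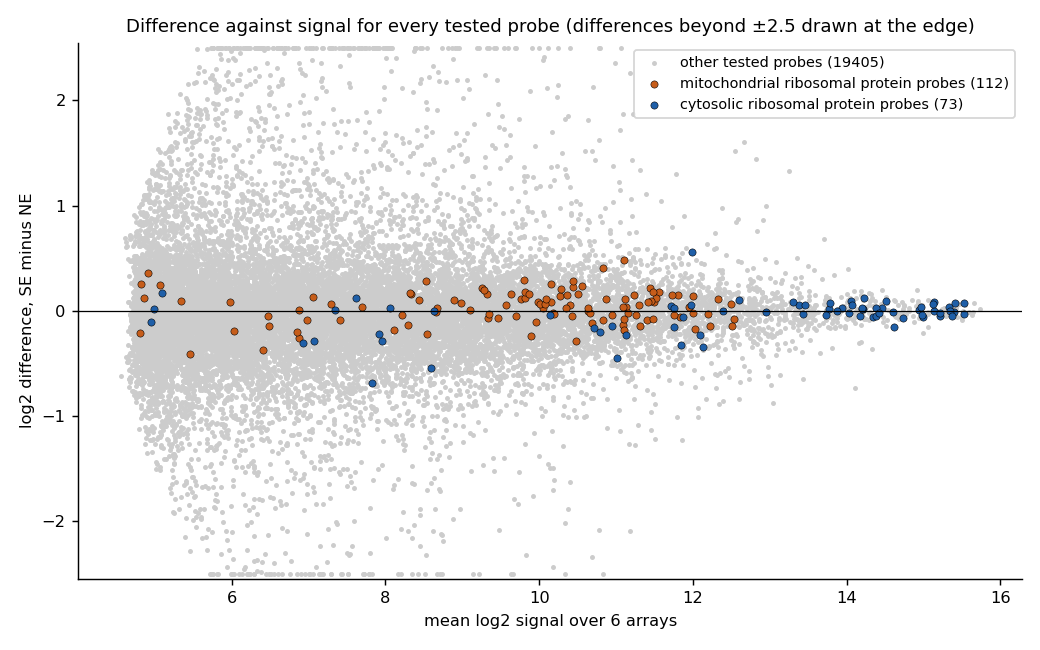
Log2 difference between SE and NE (y axis, SE minus NE, drawn at the edge where larger than 2.5) against the mean log2 signal over the 6 arrays (x axis) for cytosolic member probes (blue, 73), mitochondrial member probes (orange, 112) and the 19405 other tested probes (grey). Cytosolic probes crowd at the bright end close to 0, where the grey cloud is narrow too.

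Mrps34, of the small mitochondrial subunit and mutated in a form of human Leigh syndrome, had the largest difference of the mitochondrial set. It read 11.31, 11.28 and 11.44 on SE and 10.88, 10.85 and 10.86 on NE arrays, well apart. The difference was 0.48 (0.30 to 0.66), or 1.40-fold, with an adjusted p of 0.00206. Mrpl34, a small protein of the large subunit, read 11.07, 10.98 and 11.07 on SE and 10.56, 10.79 and 10.54 on NE arrays. NE array 2 stood nearest to SE without reaching it. The difference was 0.41 (0.20 to 0.62), or 1.33-fold, with an adjusted p of 0.0102.

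The remaining genes higher in SE differed by less. Mrpl14, of the large subunit, read 10.55, 10.53 and 10.65 on SE and 10.35, 10.35 and 10.19 on NE arrays, a difference of 0.28 (0.09 to 0.47) with an adjusted p of 0.0301. Mrps26, of the small subunit, read 10.54, 10.55 and 10.59 on SE and 10.40, 10.31 and 10.28 on NE arrays, a difference of 0.23 (0.06 to 0.40) with an adjusted p of 0.0437. Neither gene overlapped between the tissues, and neither call held with each array left out in turn. With 1 array fewer, the share of all tested probes called also fell, from 37.3% to between 28.8% and 31.9%. The call of Mrps26 was lost with any 1 of the 6 arrays left out (adjusted p from 0.0502 to 0.112), and that of Mrpl14 was lost without SE array 1, 2 or 3 or NE array 3 (0.0543 to 0.0927). The count of mitochondrial genes higher in SE was therefore 2 instead of 4 without SE array 1, SE array 3 or NE array 3.

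Towards NE, Mrpl47, of the large subunit, read 10.64, 10.63 and 10.62 on NE and 10.40, 10.27 and 10.35 on SE arrays, a difference of -0.29 (-0.46 to -0.12) with an adjusted p of 0.0163. Its call was lost without SE array 2 (0.0531), and its second, dimmer probe differed by 0.08. Mrpl39, a large-subunit protein related to threonyl-tRNA synthetases, read 5.51, 5.71 and 5.77 on NE and 5.16, 5.30 and 5.28 on SE arrays, a difference of -0.41 (-0.63 to -0.19) with an adjusted p of 0.0109. It was the dimmest gene of its set, and with the deposited scaled values its difference was -0.15 and the call was lost (adjusted p 0.106, over all alternatives 0.00715 to 0.106). Mrpl57 read 6.44, 6.78 and 6.58 on NE and 6.26, 6.29 and 6.13 on SE arrays, a difference of -0.37 (-0.61 to -0.13) with an adjusted p of 0.0257. Its call was lost without SE array 1 or 3 or NE array 2 or 3 (0.0559 to 0.0856).

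Some genes stood just outside the threshold, and these 4 were picked after their values were seen. Mrpl30 read 10.68, 10.59 and 10.76 on SE and 10.39, 10.45 and 10.49 on NE arrays, a difference of 0.23 (0.05 to 0.41) with an adjusted p of 0.0506. Mrpl52 differed by 0.25 (0.05 to 0.45) and Mrpl54 by 0.22 (0.03 to 0.40), with adjusted p of 0.0545 and 0.0644. All of these are proteins of the large subunit with every SE array above every NE array. Mrps25, of the small subunit, read 8.64, 8.65 and 8.66 on NE arrays, every SE array was lower, and the difference was -0.23 (-0.41 to -0.04) with an adjusted p of 0.0618. This was the lowest of its 3 tested probes, and the highest differed by 0.03, with the opposite sign. Of the 15 alternative analyses, Mrpl30 and Mrpl52 were called in 7 each, Mrps25 in 5 and Mrpl54 in 4.

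Mitochondrial genes named for their role passed the threshold in no case. Mrpl12, the counterpart of the bacterial stalk protein, read 12.44, 12.45 and 12.50 on NE and 12.54, 12.46 and 12.59 on SE arrays, which overlapped, and differed by 0.07 (-0.11 to 0.24). Mrps12 and Mrps7, counterparts of bacterial proteins of the decoding centre and of the head of the small subunit, differed by -0.06 (-0.24 to 0.12) and 0.06 (-0.13 to 0.24). The paralogues Mrps18a, Mrps18b and Mrps18c, relatives of a single bacterial protein, had differences of 0.15, 0.17 and 0.15, with adjusted p of 0.202, 0.103 and 0.217. The SE and NE arrays did not overlap in Mrps18a and Mrps18b and overlapped in Mrps18c. In the large subunit Mrpl28 differed by -0.15 (-0.32 to 0.03), Mrpl23 by -0.08 (-0.25 to 0.09) and the dim Mrpl51 by -0.15 (-0.44 to 0.15). Another probe had the opposite sign in Mrps12 (0.17), Mrps7 (-0.24) and Mrpl51 (0.36), and none of these was called. The probes of Mrps18b shared their sign.

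By subunit, 2 of 32 large-subunit (6.25%) and 2 of 21 small-subunit cytosolic genes (9.52%) were called. In mitochondria the counts were 5 of 46 (10.9%) and 2 of 27 (7.41%). Over all tested probes 37.3% were called, 17.1% higher in SE and 20.2% higher in NE. Both calls of the large cytosolic subunit were higher in NE, while Rps15a and Rps25 of the small subunit had opposite signs. In mitochondria both small-subunit calls were higher in SE, and the large subunit had 2 in SE and 3 in NE. Of these mitochondrial calls, only those of Mrps34, Mrpl34 and Mrpl39 held with each array left out in turn.

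A gene's probes did not always read alike. Of 15 cytosolic genes with several tested probes the spread between the largest and smallest difference had a median of 0.08, and it was under 0.5 for 13. The called cytosolic genes had a single tested probe each and are not among these 15. For 26 mitochondrial genes the median was 0.11, with 23 under 0.5. The 6 genes in this paragraph that no rule had named were singled out after their values were seen. In Rps13 the bright probe differed by -0.0048, while a dimmer one read 7.99, 8.14 and 8.39 on NE and 7.61, 7.36 and 7.49 on SE arrays, a difference of -0.69 (-0.96 to -0.41) with an adjusted p of 0.00314. In Rpl27a the brightest probe differed by 0.12 and a dimmer one by -0.45 (-0.69 to -0.21), with an adjusted p of 0.0118. Dimmer probes of Rpl31 (-0.23, adjusted p 0.0383) and Rpl21 (-0.31, 0.0496) were also called while the brightest were not. In mitochondria a dimmer probe of Mrpl15 (0.25, 0.0296) and one of Mrps10 (0.29, 0.0243) were higher in SE. No gene had probes called in opposite directions.

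Counted by probe, 8 of 73 cytosolic probes were called, 7 of them higher in NE, and 9 of 112 mitochondrial probes (8.04%), 6 of them higher in SE. The share of all tested probes called was 37.3%, with 17.1% higher in SE and 20.2% higher in NE. With any probe counted, 8 cytosolic and 9 mitochondrial genes had a call. Ribosomal protein genes have many processed pseudogenes with near-identical sequence, and probes can differ in the transcripts they bind. The probe sequences were not used here, so which probe of a gene reads it best was not tested.

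**Figure D5:**
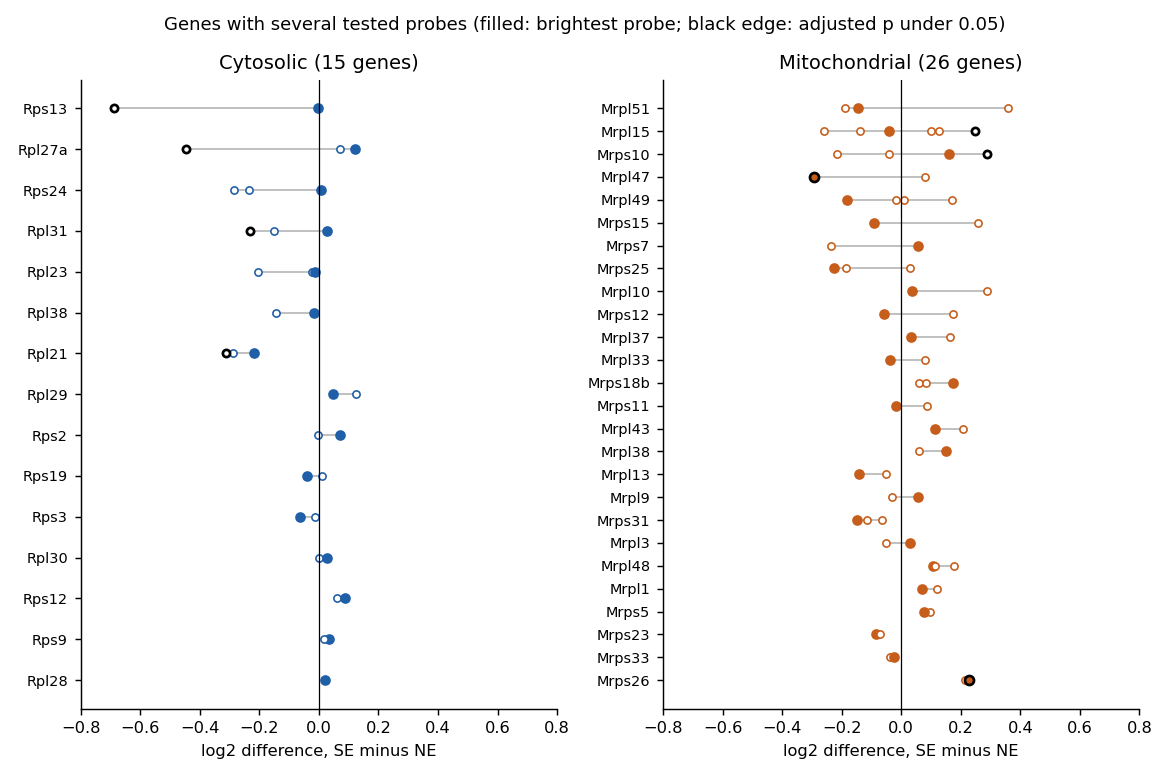
Log2 difference between SE and NE (x axis, SE minus NE) of each tested probe for the 15 cytosolic (left) and 26 mitochondrial (right) genes with several tested probes (y axis, widest spread on top), the brightest probe filled, the others open, and a black edge where the adjusted p was under 0.05. In Rps13, Rpl27a, Rpl31 and Rpl21 the called probe is a dimmer one, and its difference is negative.

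Of the 132 genes 126 passed the filter. Rpl17, Rps20 and Rps23 and the mitochondrial Mrpl19, Mrpl32 and Mrps14 did not, as their probes were detected on no array. All 73 mitochondrial probes used were detected on all 6 arrays, as were 51 of the 53 cytosolic ones, the others being those of Rpsa and Rpl6. Passing the filter thus depended on a single tissue in none of the called genes.

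The annotated starts of some members are shown, some with and some without a TOP start by the rule given here. RefSeq promoter windows, from 250 bases before to 50 after an annotated start (GRCm38.p6), matched 113 of the 132 genes. Each line gives 15 bases on either side of the start, with the first transcribed base in capitals, or the whole pyrimidine run where it is a TOP start, here a C followed by at least 4 pyrimidines. Rps15a (chr7:118116133-118116162, minus strand), Rps6 (chr4:86857353-86857382, minus) and Rpl38 (chr11:114668565-114668594, plus) have such a start. Rps25 (chr9:44407699-44407728, plus), Rpl4 (chr9:64173372-64173401, plus) and the mitochondrial Mrpl34 (chr8:71464911-71464940, plus) and Mrpl47 (chr3:32736741-32736770, minus) do not.
Rps15a: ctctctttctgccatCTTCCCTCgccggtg
Rps6: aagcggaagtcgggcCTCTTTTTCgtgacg
Rpl38: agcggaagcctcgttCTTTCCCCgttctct
Rps25: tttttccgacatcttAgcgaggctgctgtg
Rpl4: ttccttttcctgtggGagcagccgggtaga
Mrpl34: gaactacatttcccaGaaggcattgtcaag
Mrpl47: gacaccgacactgtgGgtctccattagaaa

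A TOP start by this rule was found in 9 of 46 cytosolic genes (19.6%), in 0 of 67 mitochondrial genes and in 467 of all 17491 protein-coding genes with a window (2.67%). An annotated start can lie some bases from the one used, so the count and the grouping below hold for these letters only. The rule cannot show that an mRNA lacks a TOP start. The 9 cytosolic genes with a TOP start had a median difference of -0.016 and 1 call, Rps15a. The 36 tested genes without one had a median of -0.0028 and 3 calls, where 37.3% of all tested probes were called. Rps6 and Rpl38, with TOP starts, thus stood near 0 beside Rps15a at -0.55.

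Searched on both strands of the window, the letters CCGGAAG, the core that Ets factors bind, were in 21 of 46 cytosolic (45.7%) and 26 of 67 mitochondrial genes (38.8%), against 12.9% of all protein-coding genes. The letters AAGATGGC of the YY1 core, which can share its first bases with the end of an Ets core, were in 3 cytosolic (6.52%) and 12 mitochondrial genes (17.9%), against 3.57%. The letters GCATGCGC of the NRF1 core were in 1 cytosolic gene (2.17%) and 8 mitochondrial genes (11.9%), against 3.93%. Rps25 and Mrpl34 held an Ets core, Rps15a a YY1 core and Mrpl39 an NRF1 core, while the windows of Rpl4 and Mrpl47 held none of these letters. A match is a description of the sequence and not a site shown to be bound.

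Genes that build or serve the ribosome were counted beside its proteins. Of 68 tested genes of ribosome biogenesis 16 were higher in NE (23.5%) and the other 52 were not called, with a median difference of -0.12 and 54 of the 68 below 0. Nmd3, which exports the large subunit from the nucleus, differed by -0.76, Nolc1, a nucleolar phosphoprotein, by -0.73, and Utp6, of the complex that processes the small subunit's rRNA, by -0.58. Nolc1 was dim, with values from 4.91 to 6.26 and an adjusted p of 0.0348, and NE array 2 (5.60) lay close to SE array 1 (5.57). The count of 16 fell to between 8 and 11 with 1 array left out, and over all alternatives it ranged from 8, also reached with the replicate number as a block, to 23. Over all tested probes 20.2% were higher in NE.

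Of 38 cytosolic translation factors 8 were called (21.1%, against 37.3% of all tested probes), 7 of them higher in NE, with a median of -0.05. Eif3j1, Eif5b and Eif3a, which take part in initiation, differed by -0.59, -0.58 and -0.44, and Eif2b4, of the factor that recharges eIF2 with GTP, by 0.23. The probes of Eif3j1 and Eif5b were dim, with values from 5.73 to 6.45 and from 6.12 to 6.97. Of 18 cytosolic aminoacyl-tRNA synthetases 4 were higher in NE (22.2%, against 20.2% of all tested probes; Cars, -0.67, Eprs, -0.32, and Sars, -0.21, had the largest differences), with a median of -0.12 and 17 of 18 below 0. Over all alternatives, those with 1 array left out included, these counts ranged from 5 to 10 for translation factors in NE, from 0 to 2 for those in SE and from 1 to 6 for the synthetases.

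In mitochondria, of 28 translation and ribosome assembly factors limma called 5 (17.9%, against 37.3% of all tested probes), of which 2 had their higher level in SE, with a median of -0.04. Mtif3, an initiation factor, and Nsun4, which methylates the small subunit's rRNA, differed by 0.56 and 0.54. Mto1, which modifies mitochondrial tRNAs, Mtrf1, of the release factor family, and Noa1, a GTPase of ribosome assembly, differed by -0.33, -0.30 and -0.27. The count of 3 in NE ranged from 0, without NE array 2, to 7, with the deposited scaled values, and that of 2 in SE from 1 to 3. Of 14 mitochondrial aminoacyl-tRNA synthetases Mars2 was higher in SE (0.33) and Lars2 in NE (-0.31), together 14.3% against 37.3% of all tested probes. The call of Mars2 was lost without SE array 1, 2 or 3 or NE array 3, which leaves a count of 0 in SE, and the count in NE ranged from 1 to 2. Among 5 tested ribosomal protein genes whose names fall outside the rule, Rpl22l1 and Rpl36al included, and among 4 such genes of the mitochondrial ribosome, Dap3 included, limma called 0 and found 0 at an unadjusted p under 0.05, with medians of 0.03 and 0.06.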

How the data were processed

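The authors scanned single-colour Illumina MouseWG-6 v2 arrays and exported them with BeadStudio (version not given in the sources used here). They deposited, for 45281 probes and 6 arrays, a signal intensity without normalization and a detection p-value. The deposited scaled intensity equals that signal times 1 constant per array, to a mean of 420.0, with medians of 61.7, 61.8 and 62.8 (NE) and 63.0, 64.5 and 69.2 (SE). Columns were matched to samples through the sample descriptions.

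The signals were background-corrected and quantile-normalised to log2 values by neqc (offset 16) in limma 3.58.1 (R 4.3.3), filtered at a detection p-value under 0.05 on at least 3 arrays, and fitted by lmFit and eBayes for SE minus NE without a replicate block, after tests on simulated data. All adjusted p-values are limma's. Plots used matplotlib 3.10.9 in Python 3.11.15.

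Names came from the platform annotation (34885 probes with 1 symbol, 18 with several, 10378 with none). Of 19590 tested probes 2956 were unnamed, and 10603 genes were tested. The members, the 7 gene lists, the 6 marker lists and the motifs were chosen with earlier results of these data known. Named with values were called members, those of highest or lowest signal, members listed for their role, and up to 3 called genes per list and direction. Other background corrections, normalizations, filters, probe choices, a replicate block and each array left out were tried.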

Additional observations from a re-analysis of the deposited data

How the results depend on the processing

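Over 15 alternatives, the 6 that left out 1 array included, no called difference changed its sign, and Rps15a, Rpl4, Rpl22, Rps25, Mrps34 and Mrpl34 were called in all 15. Each of these genes had a single tested probe, so whether another probe would read alike was not tested. Mrpl39 was called in 14, Mrpl47 in 13, Mrpl57 in 11, Mrpl14 in 9 and Mrps26 in 7. The number of members called ranged from 8 to 18, against 11, and the largest difference of a member from 0.51 to 0.67. The share of all tested probes called was highest without background correction, at 40.6%, against 14.3% of the members. It was lowest with no filter, at 15.3%, against 9.09% of the members, so the gap was much smaller there. The count of mitochondrial genes higher in SE, 4, was 8 without background correction, 7 with an offset of 50, 7 with the mean of a gene's probes and 2 with median centring. The count higher in NE, 3, was 6 without background correction and 6 with the deposited scaled values. The median difference of the cytosolic genes became 0.042 with median centring, as the median of all tested probes stayed at -0.019. With 1 array left out, the mitochondrial count was 2 to 4 in SE and 2 to 3 in NE, and the cytosolic counts stayed at 1 and 3. With the deposited scaled values Mrpl39 was not called (-0.15, adjusted p 0.106, over all alternatives 0.00715 to 0.106) and Rplp0 was (adjusted p 0.0442, over all alternatives 0.0442 to 0.344). The differences of uncalled named genes changed sign in 15 cases, Mrpl51 (-0.15, and 0.0081 with the mean of probes) and Rpl6 (-0.10, and 0.013 with the deposited scaled values) among them. The causes were not tested. Only 3 arrays a tissue and dim probes such as those of Rpsa and Rpl6 limit what could be detected.

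The methods list 3 replicate experiments, each with an SE and an NE pool, and compare the tissues within each. The deviations of SE and NE arrays with the same number correlated at -0.037, -0.031 and -0.020. NE array 2 with SE array 3 gave 0.023, and NE array 3 with SE array 2 gave -0.0084. Over all pairs of an NE and an SE array the values lay between -0.037 and 0.040, the highest being NE array 1 with SE array 2. The numbers of NE arrays 2 and 3 are uncertain, but under either numbering no same-number pair had the highest value. Values this near 0 cannot show whether the samples were paired. With the replicate number as a block, 9 members were called and the count of mitochondrial genes higher in SE was 2, as Mrpl14 (adjusted p 0.0759) and Mrps26 (0.103) were lost.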
